A study of Oryza sativa with 16 samples.

Results

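The genes examined were the rice WRKY transcription factor genes WRKY9, WRKY62 and WRKY76, taken as every gene of those names in the probe-to-gene annotation of the array, by symbol or synonym and with the prefix Os dropped. These were 3 of the 6 genes with a WRKY number and 3 of the 17905 genes that a probe set named alone, and each was measured by 1 probe set. The 3 genes were selected on their values in these same arrays. The comparison used is not recorded for any of them, and the lower levels of WRKY9 and WRKY62 in salt-stressed CSR11 were known when they were selected. All 4 stress responses of the 3 genes are therefore given as a description, with standard errors and without p-values.

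Expression was measured on 16 Affymetrix rice arrays, 2 for each of 8 groups of rice seedlings. In the salt experiment the groups were salt-stressed and unstressed VSR156, a salt-sensitive variety, and salt-stressed and unstressed CSR11, a salt-tolerant variety. In the drought experiment they were drought-stressed and unstressed IR64, a drought-sensitive variety, and drought-stressed and unstressed Vandana, a drought-tolerant variety. Per the labels all seedlings were grown hydroponically to an age of 2 weeks, and leaf was sampled. By the same labels salt stress was 50 mM NaCl for 24 h, and drought was imposed by 24 h outside the medium. The methods of the study state a higher salt dose and a shorter drought, and they name leaf, shoot and, elsewhere in the text, whole plants as the material, with pooling of the samples. No source says whether the 2 arrays of a group, A and B, came from separate plants, so standard errors and p-values measure only the spread between arrays.

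WRKY factors are plant transcription factors named after an amino acid motif in their DNA-binding domain, and most bind the W box, a short promoter element. The family is known for roles in pathogen defence and in responses to salt, drought and abscisic acid, and many members repress their targets. In rice, WRKY62 is also named XB10, a partner of the immune receptor XA21, and WRKY62 and WRKY76 are known as negative regulators of defence against blast and bacterial blight. WRKY62 and WRKY76 are neighbours on chromosome 9, with 0 genes listed between them in the RefSeq annotation. WRKY9 is a synonym of a gene on chromosome 7. Numbering of rice WRKY genes differs between sources, so no particular function is given here for WRKY9.

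The deposited intensities were linear and differed in level between arrays, with array medians between 1.85 and 15.2. The lowest median belonged to CSR11 salt array B, and the VSR156 salt arrays, at 3.61 and 2.74, were dimmer than their controls, at 13.5 and 10.7. Arrays were brought to a common distribution by quantile normalization, and all levels below are normalized intensities unless stated. Log2 differences were taken after adding 16, which makes differences of dim probe sets smaller. The signal of GAPDH toward the 3′ end exceeded that toward the 5′ end by 6.06 and 5.89 on the log2 scale in salt-stressed VSR156, against 4.64 and 4.39 in its control, by 3.25 and 4.60 in salt-stressed CSR11, against 2.94 and 2.02 in its control, and by at most 1.34 in the drought experiment. Such an excess is a usual sign of shorter or degraded RNA, and its part in the values below was not tested.

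After quantile normalization, WRKY9 was lower under salt in both salt varieties and higher under drought in both drought varieties. In VSR156 its level was 61.7 and 50.8 in the salt arrays, against 84.9 and 102.9 in the control arrays. In CSR11 it was 54.6 and 28.4 in the salt arrays, against 129.5 and 92.8 in the control arrays. In IR64 it was 219.5 and 193.7 in the drought arrays, against 167.5 and 151.8 in the control arrays. In none of these pairs of groups did the arrays overlap. In Vandana it was 201.2 and 238.7 in the drought arrays, against 158.1 and 135.4 in the control arrays, again without overlap. Mean levels under stress were 59.9% of the control in VSR156, 37.3% in CSR11, 129% in IR64 and 150% in Vandana.

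On the log2 scale the differences of WRKY9, stressed minus control, were -0.60 in VSR156, -1.17 in CSR11, 0.34 in IR64 and 0.53 in Vandana (SE 0.22 each). The lower level in CSR11 was smaller without 1 array, at -0.83 without CSR11 salt array B and -0.96 without CSR11 control array A. Scaling changed its size most in VSR156, where the difference was -1.86 after median centring of the arrays and -2.41 for the values as deposited. In Vandana the difference was 0.34 after median centring and 0.09 as deposited, where the level was 225 and 249.9 in the drought arrays, against 163.2 and 301.5 in the control arrays, so the higher level there depended on the normalization. WRKY9 was at the 67.9th to 89.8th percentile of all probe sets on each array, well inside the brighter part of the array.

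WRKY62 was lower under stress in all 4 varieties, and it was dim in the stressed groups and in unstressed Vandana and VSR156. In IR64 its level was 4.15 and 9.99 in the drought arrays, against 54.8 and 60.2 in the control arrays. In CSR11 it was 17.7 and 2.87 in the salt arrays, against 62.7 and 37.9 in the control arrays. These 2 varieties had the highest WRKY62 levels in unstressed leaves. In Vandana it was 8.05 and 11.5 in the drought arrays, against 15.2 and 19.8 in the control arrays. In VSR156 it was 4.18 and 3.55 in the salt arrays, against 12.4 and 16.2 in the control arrays. The stressed and control arrays did not overlap in any variety, and stressed means were 12.3% of the control in IR64, 20.5% in CSR11, 55.7% in Vandana and 27% in VSR156.

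The log2 differences of WRKY62 were -1.68 in IR64, -1.37 in CSR11, -0.38 in Vandana and -0.61 in VSR156 (SE 0.25 each). Under stress the probe set was at the 31st to 62.6th percentile of its array, and 4 of its 8 stressed values were below the array's median. The deposited table holds no detection calls, and whether the transcript was detected in stressed leaves cannot be read from it. With a pseudocount of 1 in place of 16 the WRKY62 difference in IR64 was -2.96, and with 64 it was -0.77. Without CSR11 salt array B, in which WRKY62 was lowest, the CSR11 difference was -0.95.

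WRKY76, the neighbour of WRKY62, was lower under drought in both drought varieties. In IR64 its level was 19.9 and 18.9 in the drought arrays, against 134.1 and 149.8 in the control arrays. In Vandana it was 26.8 and 27.6 in the drought arrays, against 113.3 and 80.6 in the control arrays. Drought arrays of both varieties were below every other array of the series for this gene. The log2 differences were -2.16 in IR64 and -1.37 in Vandana (SE 0.19 each), and mean levels were 13.7% and 28% of the controls. Under all 29 alternative settings WRKY76 stayed lower under drought, between -2.81 and -1.30 in IR64 and between -2.09 and -0.81 in Vandana.

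Under salt, WRKY76 went opposite ways in the 2 salt varieties after quantile normalization. In VSR156 its level was 109.1 and 78.9 in the salt arrays, against 41.8 and 42.7 in the control arrays. In CSR11 it was 61.7 and 73.9 in the salt arrays, against 146.5 and 104.3 in the control arrays. The groups did not overlap in either variety. The log2 difference was 0.90 in VSR156 and -0.74 in CSR11 (SE 0.19 each), and the responses differed by 1.64 (SE 0.26, VSR156 minus CSR11). The direction in VSR156 depended on the scaling, since the difference was -0.61 after median centring of the arrays and -1.16 for the values as deposited, where WRKY76 read 30.8 and 13.6 in the salt arrays, against 72.6 and 62.5 in the control arrays. In rank terms the gene was at the 82nd and 78.6th percentile in the VSR156 salt arrays, against the 71.9th and 72.1st in the control arrays. For the values as deposited the median difference over all probe sets was -0.53 in VSR156. Array medians were 3.61 and 2.74 in the salt arrays, against 13.5 and 10.7 in the control arrays. Median centring takes out only a median difference of this kind, which the pseudocount makes smaller for dim probe sets. Part of the difference in brightness between the arrays therefore stays in the centred values. By percentile WRKY76 ranked higher in the salt arrays, so the centred value of -0.61 is not read as a fall relative to its array. Mean array intensity as deposited was 36.2 and 22.9 in the salt arrays, against 133 and 114 in the control arrays. Mean WRKY76 as deposited was 22.2 under salt, against 67.5, or 32.9% of the control.

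**Figure D1:**
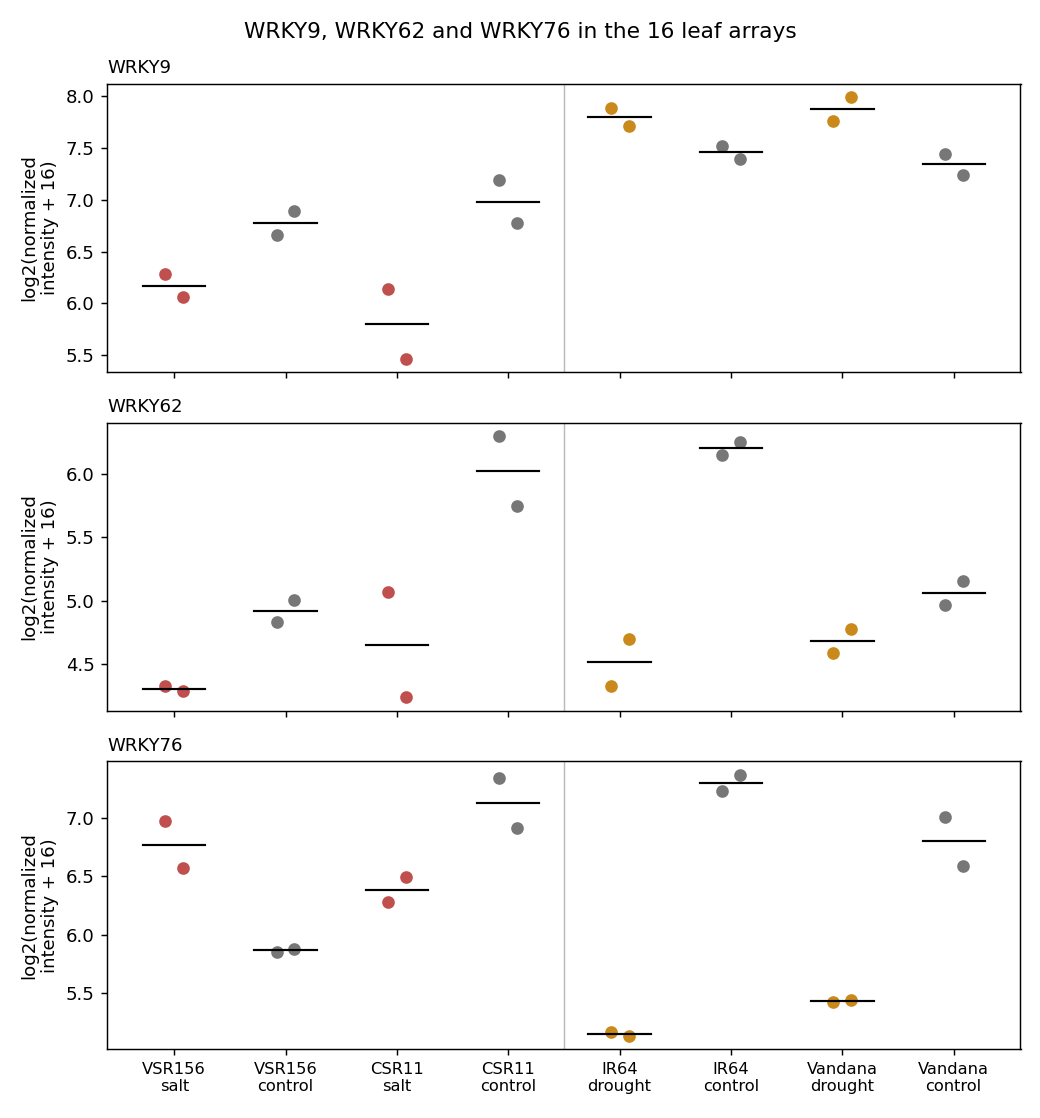
Levels of WRKY9, WRKY62 and WRKY76 in each array, as log2 of the normalized intensity plus 16 (vertical axis), for the 8 groups (horizontal axis; salt in red, drought in yellow, control in grey); points are arrays and black lines group means. Stressed and control arrays of a variety did not overlap for any of the 3 genes, and WRKY76 was above its control in salt-stressed VSR156 (6.77 against 5.86, a direction that turned under the other scalings) but below it in the other 3 comparisons.

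The summed level of root markers moved with WRKY76 after quantile normalization. All samples were labelled leaf, while the study's text also names whole plants. The root list, with the silicon transporters LSI1 and LSI2, the iron transporters IRT1, IRT2 and YSL15, the metal transporter NRAMP5 and the nitrate transporter NRT2.2, had 7 measured genes. Their summed level was 3030 in each VSR156 salt array, against 407 and 430 in the control arrays, and 1470 and 1690 in the CSR11 salt arrays, against 5450 and 5530 in the control arrays. In the drought experiment the sums were 166 and 190 in drought-stressed IR64, against 574 and 569 in its control, and 160 and 184 in drought-stressed Vandana, against 206 and 213 in its control. After quantile normalization the sum was thus higher under stress where WRKY76 was higher and lower where WRKY76 was lower. By the fit, 4 root markers rose and 0 fell in VSR156, 0 rose and 6 fell in CSR11, 0 rose and 2 fell in IR64, and 1 rose and 0 fell in Vandana. Over all 17905 genes, 6.83% rose and 6.48% fell in VSR156, 4.48% and 5.9% in CSR11, 5.48% and 8.14% in IR64, and 10.6% and 13.5% in Vandana. After median centring of the arrays 1 root marker rose in VSR156 and 2 fell in CSR11, with none called in drought, and as deposited 0 were called in any comparison. The median of the list in VSR156 was 2.40, but 0.54 after median centring, where WRKY76 was at -0.61, and -0.01 as deposited. The sums as deposited were 998 and 588 in VSR156 salt arrays, against 669 and 584 in the control arrays, which overlapped. IRT1 and YSL15, which take up iron in roots, differed by 3.38 and 2.67 in VSR156 and by -2.70 and -2.11 in CSR11. In IR64 drought they differed by -1.92 and -1.86. In Vandana drought, where WRKY76 was lower, YSL15 went the other way and was the 1 root marker called higher (limma adjusted p = 0.000369). IRT1 was not called in Vandana. Single root markers thus did not all move with WRKY76. Of the 7 root markers, 0 were at 0 in any array, but their lowest deposited value was 0.318, below the median of every array. Without detection calls, presence of their transcripts cannot be read from this. The part of root tissue in the WRKY76 levels was not tested.

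**Figure D2:**
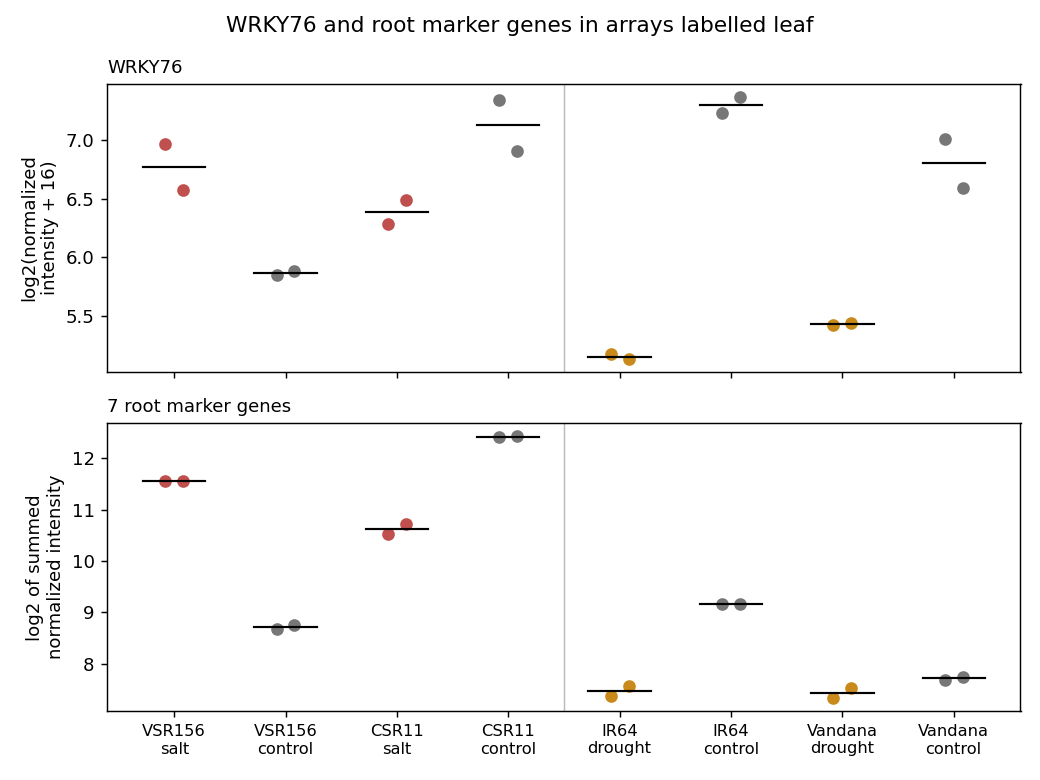
Upper panel, WRKY76 as log2 of the normalized intensity plus 16; lower panel, log2 of the summed normalized intensity of 7 root marker genes; both by group, with points for arrays and lines for group means (salt in red, drought in yellow, control in grey). After quantile normalization both were higher in VSR156 salt than in its control (WRKY76 turned under the other scalings, and the root sums overlapped as deposited), and both were lower under stress in CSR11, IR64 and Vandana.

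Other marker lists were measured beside these. The 5 leaf markers, of photosynthesis, summed to between 12700 and 14300 in the stressed groups, against 14500 to 18100 in the control groups, so leaf transcripts were abundant in all arrays. The 8 markers of dividing cells summed to 881 and 955 in VSR156 salt arrays, against 2080 and 2110 in the control arrays, and to 1610 and 1700 in CSR11 salt arrays, against 976 and 1040 in the control arrays. Under drought they summed to 102 and 124 in IR64, against 187 and 171 in its control, and to 135 and 92.2 in Vandana, against 266 and 301 in its control, where WRKY62 and WRKY76 were lower too. By the fit, 0 of these 8 markers rose and 5 fell in VSR156, 2 rose and 0 fell in CSR11, 0 were called in IR64, and 0 rose and 3 fell in Vandana. The shares of all genes are given with the root markers. In CSR11 the median of 0.33 turned to -0.39 after median centring of the arrays and -0.54 as deposited, with 0 called under either. The 3 lower calls in Vandana also became 0 under either scaling. In VSR156, 7 of these markers fell after median centring and 8 as deposited. The part of these markers in the WRKY levels was not tested. In such bulk samples fewer cells of a type and less RNA per cell cannot be told apart, for the WRKY genes as for the markers.

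The unstressed levels of WRKY62 and WRKY76 differed between the varieties of an experiment, and those of WRKY9 did so less. WRKY62 was higher by 1.14 (SE 0.25) in unstressed IR64 than in unstressed Vandana, and lower in unstressed VSR156 than in unstressed CSR11, at -1.10 (SE 0.25). WRKY76 differed by 0.50 between unstressed IR64 and Vandana, and by -1.26 between unstressed VSR156 and CSR11 (SE 0.19 each). WRKY9 differed by 0.11 and -0.20 in the same comparisons (SE 0.22 each), with overlapping arrays. Under stress the WRKY62 arrays of the varieties overlapped, with mean levels of 7.07 in drought-stressed IR64 and 9.77 in drought-stressed Vandana, and of 3.87 in salt-stressed VSR156 and 10.3 in salt-stressed CSR11. Levels this low are pressed together on the log2 scale by the 16 added, so log2 distances between stressed groups are not read for this gene.

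The drought responses of IR64 and Vandana differed by -1.30 for WRKY62 (IR64 minus Vandana, SE 0.36), by -0.78 for WRKY76 (SE 0.26) and by -0.19 for WRKY9 (SE 0.31). None of the 3 passed the threshold for a difference of responses, which 7.41% of all probe sets passed, but WRKY62 passed it under 9 of 25 alternative settings and WRKY76 under 3 of 26. Mean WRKY62 levels were 57.5 in unstressed IR64 and 17.5 in unstressed Vandana, against 7.07 and 9.77 under drought. The WRKY62 difference thus lay mainly between the unstressed groups, and in Vandana the gene was already dim without stress. For salt, the corresponding differences of VSR156 minus CSR11 were 0.56 for WRKY9, 0.76 for WRKY62 and 1.64 for WRKY76. After median centring of the arrays they were -0.67, 0.45 and 0.56, and as deposited -1.07, 0.05 and 0.15, so that the sign for WRKY9 turned and the other values shrank. WRKY76 was past the threshold, as were 9.04% of all probe sets, and without CSR11 salt array A all 3 genes were past it, at 0.90 for WRKY9, 1.18 for WRKY62 and 1.54 for WRKY76. Without CSR11 salt array B the values were 0.23, 0.34 and 1.75. As the genes were selected on values of these arrays, nothing is read from which of them passed.

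The variety labels of the drought arrays bear on these values. Over the 206 probe sets that were at least 3 log2 units apart between the unstressed varieties, the Vandana drought arrays were nearer to unstressed IR64 at 88.3%, and the IR64 drought arrays at 60.7%. Against the control of the other variety, WRKY76 differed by -1.66 in IR64 drought arrays and by -1.87 in Vandana drought arrays (SE 0.19 each), and WRKY9 by 0.45 and 0.42 (SE 0.22 each). Directions of these 2 genes were thus the same with either control, although the larger WRKY76 decrease was in IR64 against the varieties' own controls and in Vandana against crossed ones. WRKY62 differed by -0.55 in IR64 drought arrays against the Vandana control and by -1.51 in Vandana drought arrays against the IR64 control (SE 0.25 each), so its difference between the varieties also turned with crossed controls. Against the IR64 control, to which both drought groups were nearer, WRKY62 differed by -1.68 in IR64 drought arrays and by -1.51 in Vandana drought arrays.

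**Figure D3:**
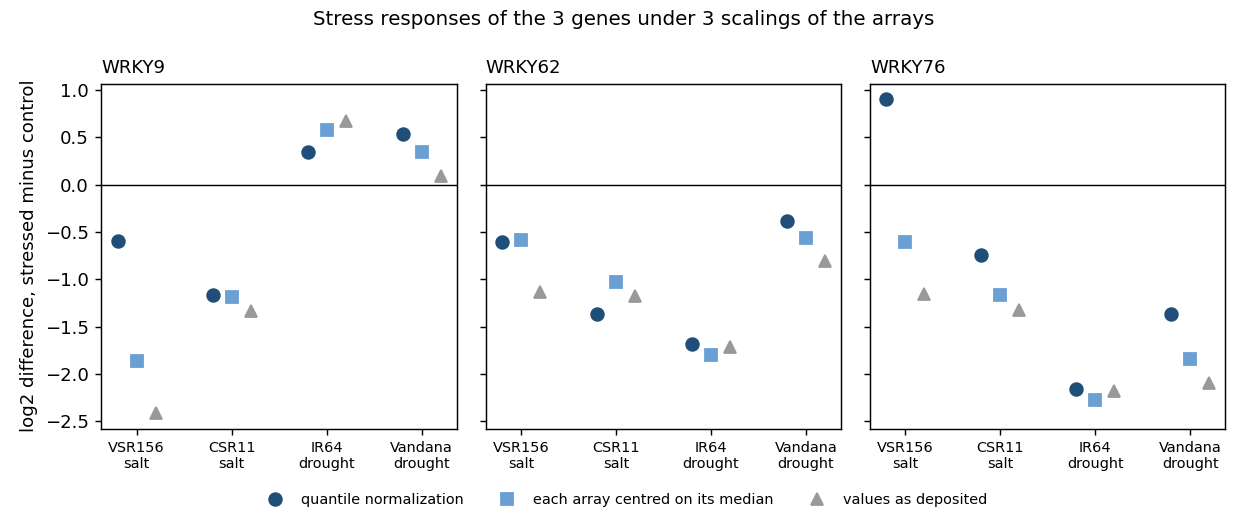
Log2 differences, stressed minus control (vertical axis), of WRKY9, WRKY62 and WRKY76 in the 4 stress responses (horizontal axis), after quantile normalization (circles), after median centring of the arrays (squares) and as deposited (triangles). Only WRKY76 in salt-stressed VSR156 changed direction, with 0.90, -0.61 and -1.16.

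Across all 57194 probe sets, calls required an adjusted p under 0.05 in the limma fit and a log2 difference of at least 1 in size. In VSR156 salt, 3.33% of probe sets were called higher and 4.42% lower, and 0 of the 3 genes was called. In CSR11 salt, 2.37% were higher and 3.97% lower, and 2 of the 3 genes, WRKY9 and WRKY62, were lower. In IR64 drought, 3.01% were higher and 3.95% lower, and WRKY62 and WRKY76 were lower. In Vandana drought, 5.25% were higher and 6.52% lower, and WRKY76 was lower. Because the genes were selected on such values, nothing is read from these counts.

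Ordered by level, WRKY9 was highest under drought, at mean log2 levels of 7.88 in Vandana and 7.80 in IR64, followed by the unstressed groups of IR64 (7.46), Vandana (7.34), CSR11 (6.98) and VSR156 (6.78), and lowest in salt-stressed VSR156 (6.17) and salt-stressed CSR11 (5.81). Neighbours in this order overlapped within each of the 4 pairs and not between them. WRKY62 was highest in unstressed IR64 (6.20) and unstressed CSR11 (6.02), which overlapped, then in unstressed Vandana (5.06) and unstressed VSR156 (4.92), which overlapped too. The 4 stressed groups were lowest, from 4.68 to 4.31, and each overlapped the next. WRKY76 was highest in unstressed IR64 (7.30), CSR11 (7.13) and Vandana (6.80) and in salt-stressed VSR156 (6.77), each overlapping the next, and then came salt-stressed CSR11 (6.39), unstressed VSR156 (5.86), drought-stressed Vandana (5.43) and drought-stressed IR64 (5.15), with no overlap between neighbours.

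The other genes with a WRKY number were WRKY24, WRKY51 and WRKY71, which in rice are known as repressors of gibberellin responses in the aleurone of the seed. WRKY71 moved under salt in the directions of WRKY76. Its brighter probe set read 124.7 and 90.9 in VSR156 salt arrays, against 34.5 and 32.4 in the control arrays, and 85.5 and 37.1 in CSR11 salt arrays, against 146.7 and 120.8 in the control arrays. WRKY71 rose by 1.31 in VSR156 (limma adjusted p = 0.00312) and fell by 1.02 in CSR11 (adjusted p = 0.015). The rise in VSR156 turned to -0.24 after median centring of the arrays and -0.79 as deposited, and neither salt call held under those scalings. The call in CSR11 was also lost without CSR11 salt array B (-0.55) and without CSR11 control array A (-0.90). Under drought, in contrast to the lower WRKY76 levels, WRKY71 rose by 1.36 in Vandana (adjusted p = 0.00151) and differed by 0.15 in IR64. Its mean log2 level in the Vandana drought arrays, 8.51, was above unstressed Vandana (7.15) but not above unstressed IR64 (8.56). The rise thus depended on which control was used, and the variety labels of these arrays bear on it. The call in Vandana was lost under both other scalings (1.19 and 0.94). The second WRKY71 probe set, dimmer in every group, passed the threshold in none of the 4 responses (-0.01, 0.32, 0.19 and 0.71 in VSR156, CSR11, IR64 and Vandana).

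WRKY24 read 16.3 and 15.3 in IR64 drought arrays, against 61.5 and 64.2 in the control arrays. WRKY24 fell by 1.31 there (limma adjusted p = 0.0362), a call lost as deposited and when any 1 of 8 arrays was left out, namely the 4 IR64 arrays, the Vandana drought arrays and the VSR156 control arrays. Mean log2 WRKY24 in the IR64 drought arrays, 4.99, was below unstressed IR64 (6.30) and less far below unstressed Vandana (5.43). The size of its fall thus depended on which control was used, and the variety labels of these arrays bear on it. WRKY51 was not called in any response, with differences between -0.53 and 0.60.

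**Figure D4:**
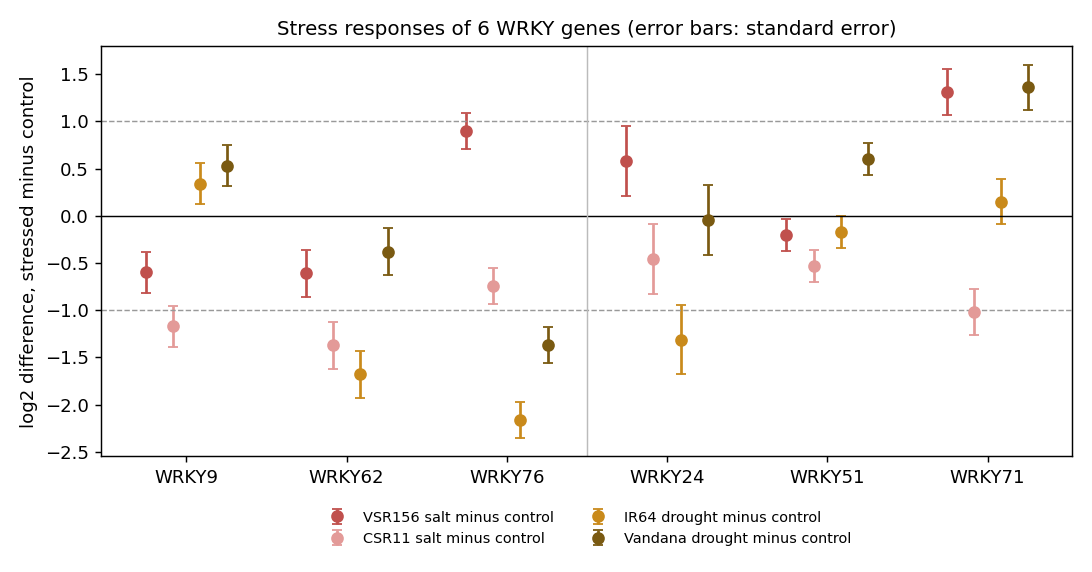
Log2 differences, stressed minus control (vertical axis), of the 3 selected WRKY genes (left) and of WRKY24, WRKY51 and the brighter probe set of WRKY71 (right) in the 4 stress responses; error bars are standard errors and dashed lines mark the size of 1 needed for a call. WRKY76 and WRKY71 differed in the same direction in each salt variety, upward in VSR156 only after quantile normalization, while in drought-stressed Vandana WRKY76 was lower (-1.37) and WRKY71 higher (1.36). Mean log2 WRKY71 in drought-stressed Vandana (8.51) was not above that in unstressed IR64 (8.56).

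Genes of defence pathways, in which WRKY62 and WRKY76 are known to act in rice, were followed as lists, whose counts stand beside the shares of all genes given with the root markers. Of 14 measured genes of diterpenoid phytoalexin synthesis, the pathway of antimicrobial terpenes, 5 rose and 0 fell in VSR156 salt, where WRKY76 was higher, with a median of 0.63, against 0.00 over all 17905 genes. After median centring of the arrays, or as deposited, 0 rose and 2 fell there. In CSR11 salt 0 rose and 2 fell, with a median of -0.49. That lower count was 0 under both other scalings and without CSR11 salt array B, and 5 without CSR11 salt array A. In drought, 1 rose and 0 fell in IR64, and 0 rose and 2 fell in Vandana, with medians of 0.00 and -0.42. The higher count in IR64 and the lower count in Vandana were near the shares of all genes, 5.48% and 13.5%. CYP99A2, a cytochrome P450 of momilactone synthesis, rose by 2.39 in VSR156 (adjusted p = 7.45e-06) and differed by 0.04 in CSR11. CYP76M7, a cytochrome P450 of phytocassane synthesis, rose by 2.16 in IR64 drought (adjusted p = 2.90e-06) and fell by 3.57 in Vandana drought (adjusted p = 2.95e-08), whereas WRKY62 and WRKY76 were lower in both. Crossed drought controls were tried for the selected genes only, so these opposite changes rest on the variety labels of the drought arrays. KSL7, a diterpene synthase, fell by 1.22 in CSR11 (adjusted p = 0.00323) and by 1.54 in Vandana (adjusted p = 0.000278). CYP71Z7 rose by 1.23 in VSR156 (adjusted p = 0.00727).

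Of 8 measured genes of salicylate signalling and pathogenesis-related proteins, 4 rose and 0 fell in VSR156, 2 rose and 1 fell in CSR11, 1 rose and 1 fell in IR64, and 3 rose and 1 fell in Vandana, with medians of 0.95, -0.09, -0.12 and 0.09. After median centring 1 rose and 2 fell in VSR156, and as deposited 0 rose and 2 fell, while under both scalings none was called in CSR11 or IR64 and 0 rose and 1 fell in Vandana. The chitinase gene CHT9 rose in all 4, by 3.03 in VSR156, 2.81 in CSR11, 1.44 in IR64 and 1.66 in Vandana (adjusted p at most 0.00016). CHT9 differences stayed positive under each scaling, but of its calls only that in VSR156 held after median centring (1.74) and none as deposited. CHT1 and CHT8, called higher in VSR156 by 1.89 and 2.23, were at 0.00 and 0.78 after median centring of the arrays. CHT1 was also called higher in CSR11 (1.82) and Vandana (1.18), and CHT8 in Vandana (1.14), where WRKY76 was lower. NPR3, a relative of the salicylate receptor NPR1, fell by 1.06 in IR64 and fell by 2.29 in Vandana, where WRKY76 was lower too.

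Of 24 measured jasmonate genes, 5 rose and 1 fell in VSR156, 1 rose and 2 fell in CSR11, 0 rose and 4 fell in IR64, and 4 rose and 3 fell in Vandana, with medians of 0.14, -0.17, -0.25 and 0.20. The lower count in Vandana was near the share of all genes. In VSR156 the median was -1.09 after median centring of the arrays and -1.64 as deposited, with 0 higher and 7 lower under both. In CSR11 none was called under those scalings, and 5 fell without CSR11 salt array A against 1 without CSR11 salt array B. In IR64 they left 1 lower, and in Vandana 2 higher and 1 lower after median centring and none as deposited. TIFY11C, a JAZ repressor of jasmonate signalling, rose by 3.07 in VSR156 and by 2.42 in Vandana, and TIFY11A, another, fell by 2.08 in IR64. JAR1, which conjugates jasmonate to isoleucine, fell by 1.86 in CSR11 and fell by 1.74 in Vandana, and OPR1, an oxophytodienoate reductase, rose by 2.12 in VSR156 and by 1.58 in CSR11. Of 5 MAP kinase genes, which can act upstream of WRKY factors, 1 was called, MPK5, which rose by 1.10 in VSR156 and was at -0.44 after median centring of the arrays. Of the list genes named, CYP71Z7, CHT1 and MPK5 lost their positive difference in VSR156 under another scaling. Calls of CYP76M7, of KSL7 and NPR3 in Vandana and of TIFY11A in IR64 held under both other scalings, but these are drought calls and rest on the variety labels. The other calls named were lost under at least 1 scaling. These lists were written with earlier results of these data known, and they cover only genes named in the annotation.

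Likeness of pattern was measured by Pearson's r of log2 levels over the 16 arrays, which share 8 groups and 2 experiments, among the 74 genes whose RefSeq symbol was not a locus number and whose mean log2 level was above the median of all probe sets. WRKY9 was most like TGA2.2, a bZIP factor that interacts with NPR1 in rice (r = 0.93). Next came WRKY51 (0.91), MHZ4 (0.90), CPK13 and PP2C53 (0.87 each). WRKY51 was dim in the salt experiment, at 9.62 at most over its control and salt-stressed arrays. WRKY62 was most like CPK7, a calcium-dependent protein kinase (0.82), then atpI and ASA2 (0.75 each), LFNR1 (0.71) and NINJA1 (0.59). WRKY76 was most like LFNR1, a leaf ferredoxin-NADP reductase of photosynthesis (0.79), then AL1 (0.68), ASL1 (0.66), KIN14H (0.64) and CPK23 (0.57). LFNR1 differed by -2.25 in IR64 drought and by -2.75 in Vandana drought, and it was lower in both salt varieties as well (-0.57 in VSR156 and -1.35 in CSR11), unlike WRKY76 in VSR156 after quantile normalization. Over the 8 group means the order changed, with MHZ4 (0.95) before TGA2.2 (0.94) for WRKY9 and ASA2 (0.94) before CPK7 (0.85) for WRKY62. These correlations describe the 16 arrays only.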

How the data were processed

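The authors deposited 1 table of linear intensities for 57381 probe sets on 16 arrays, made with GCOS 1.0 per the submitters' processing notes, while the methods of the study also name RMA. Without the 187 control probe sets, 57194 remained. They were put through quantile normalization across the 16 arrays, and log2 was taken after adding 16. In the annotation, 22436 probe sets had 1 gene, 95 had several and 34663 had none listed. Differences came from limma 3.58.1 in R 4.3.3, with 1 mean for each of 8 groups in 1 fit (8 residual degrees of freedom) and Benjamini-Hochberg adjustment over all probe sets. A call needed an adjusted p under 0.05 and a log2 difference of at least 1 in size, and a difference of responses the adjusted p alone. The code was tested on simulated data.

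The members and lists were chosen with earlier results of these data known. Tests of the members were planned for VSR156, IR64 and Vandana, but the comparison on which the members were chosen is not recorded, so members carry no p-value. The text names every member, other WRKY genes, up to 4 called genes per list with the largest mean change, and the 5 genes most like each member. Sequences were not used here. RefSeq assembly ASM3414082v1 served for names and neighbours only. A replicate letter showed no shared effect within a variety (correlations of deviations from -0.027 to 0.012), so no block was used. Plots were made with Python 3.11.15 and matplotlib 3.10.9. The alternatives tried were 2 other scalings and quantile normalization within each experiment, 2 pseudocounts, a filter on dim probe sets, fits to fewer arrays, a replicate block, array weights, the methods' Welch test, crossed drought controls and leaving out each array. For the other WRKY genes, the lists and the difference of salt responses, the 2 other scalings and the left-out arrays were added after seeing the data.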

Additional observations from a re-analysis of the deposited data

Results flagged for a closer look

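The salt response of WRKY76 differed between VSR156 and CSR11 by 1.64 on the log2 scale (VSR156 minus CSR11, SE 0.26), which drew attention because the responses of the varieties to the same stress differed past the threshold of the limma fit across all probe sets. It was between 1.43 and 1.86 when any 1 array was left out, and 1.75 without the dim CSR11 salt array B. It was 0.56 after median centring of the arrays and 0.15 for the values as deposited. The gene was selected on values of these arrays, and the comparison used is not recorded, so the difference is a description. WRKY71 gave 2.33 in the same comparison, 0.89 after median centring of the arrays and 0.49 as deposited. With 2 arrays per group, no group was large enough to look for single outlying arrays.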

How the results depend on the processing

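Of the stress responses of the 3 genes, only WRKY76 in VSR156 salt changed direction, to -0.61 after median centring of the arrays and -1.16 as deposited. Differences of the drought responses, IR64 minus Vandana, changed direction for WRKY9 (0.24 after median centring of the arrays, 0.58 as deposited), and against crossed drought controls for WRKY9 (0.03), WRKY62 (0.97) and WRKY76 (0.21). The difference of salt responses turned for WRKY9 (-0.67 after median centring, -1.07 as deposited). Counts of the 3 genes called moved more. In VSR156 salt, 0 became 1 after median centring or a pseudocount of 1, and 2 as deposited, with 0 to 1 when an array was left out (1 without VSR156 salt array B). In CSR11 salt, 2 became 0 after median centring, as deposited, with a pseudocount of 64, in the fits to 8 or 4 arrays and by the methods' Welch test before and after adjustment, and 1 with the filter on dim probe sets, which removes WRKY62. It was 0 to 2 when an array was left out, 0 without CSR11 salt array B and 1 without CSR11 control array A. In IR64 drought, 2 became 1 as deposited, with a pseudocount of 64, with the filter, by the Welch test and with crossed controls, and 0 by the adjusted Welch test. In Vandana drought, 1 became 0 with a pseudocount of 64 and by either Welch test, and 2 with crossed controls. For the difference of drought responses, 0 became 1 with normalization within experiments, a pseudocount of 64, the filter (WRKY76) or the replicate block, and 2 (WRKY62 and WRKY76) in the fit to 8 arrays or with array weights, with 0 to 1 when an array was left out (1 without any 1 of the 4 CSR11 arrays). The replicate block, which letters A and B do not support as a pairing, changed no other count by over 1.5 times. The causes of these shifts were not tested, beyond those that follow from fewer probe sets or arrays. Of the 3 genes, WRKY62 was the dimmest in each group and is the one most limited by low intensity. The 2 arrays a group limit every standard error.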
